A study of Mus musculus with 12 samples.

Results

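Parvb encodes beta-parvin, an adaptor of the integrin-linked kinase complex, and this complex was followed in C2C12 cells, a myoblast line from C3H mice and the source of every sample, after silencing of the transcription factor Bach1. The genes examined were the 3 parvins Parva, Parvb and Parvg, the kinase Ilk, the PINCH adaptors Lims1 and Lims2, the Ras suppressor Rsu1, the kindlin Fermt2, the talin Tln1 and the vinculin gene Vcl. Members were found as every probe of the deposited table that carried one of these symbols, which gave 20 probes of 10 genes, out of 56605 probes and 27306 gene symbols on the array. Parvb was taken up because its signal was known to fall with silencing in these arrays, so its values are given as a description with no test. The other 9 genes were taken for what their proteins do.

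The experiment had 4 conditions with 3 one-colour Agilent arrays each: siControl at day 0, siBach1 at day 0, siControl at day 2 and siBach1 at day 2. All cells were transfected with a small interfering RNA, a negative control (siControl) or 1 directed against Bach1 (siBach1). At confluence, 24 hours after transfection, the medium was changed to one with 2% horse serum, which induces myoblasts to differentiate into myotubes; day 0 cells had not been induced, and day 2 cells had been kept in it for 2 days. A single siRNA sequence against Bach1 and a single cell line were used, the level of RNA was measured and not protein, and the labels do not say whether replicates were separate cultures, so that p-values measure the spread between these arrays, which may be technical.

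Integrins are the receptors with which a cell holds the matrix around it. Inside the cell, talin and kindlin bind the integrin tail and switch it on, and integrin-linked kinase, PINCH and parvin form a tight complex that joins the same tail to actin. Integrin-linked kinase acts there mainly as a scaffold rather than as an enzyme. In skeletal muscle these proteins gather at the ends of fibres and at costameres, the sites where the contractile apparatus is tied to the membrane. Bach1 is a repressor that pairs with small Maf proteins on DNA, at elements close to the antioxidant response element.

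The sequences before the start sites of Parvb, Lims1 and Vcl are shown because a tested probe or more of each gene was lower in siBach1 cells at day 0. Each of the 3 genes also had a probe that was not lower, as described below. Each run holds the 250 bases before an annotated RefSeq start (GRCm38.p6, all on the + strand), at chr15:84231793-84232042 for Parvb, chr10:58323297-58323546 for the first listed start of Lims1 and chr14:20929148-20929397 for Vcl. Capitals mark every match, on either strand, to the AP-1 core TGACTCA, the antioxidant response element core TGACNNNGC, the E-box CANNTG or the CArG box; the first 2 can overlap.
Parvb: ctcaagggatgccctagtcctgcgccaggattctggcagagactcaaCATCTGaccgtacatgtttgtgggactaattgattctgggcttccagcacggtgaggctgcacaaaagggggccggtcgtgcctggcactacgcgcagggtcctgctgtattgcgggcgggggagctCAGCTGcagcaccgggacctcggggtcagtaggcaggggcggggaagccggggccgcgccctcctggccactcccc
Lims1: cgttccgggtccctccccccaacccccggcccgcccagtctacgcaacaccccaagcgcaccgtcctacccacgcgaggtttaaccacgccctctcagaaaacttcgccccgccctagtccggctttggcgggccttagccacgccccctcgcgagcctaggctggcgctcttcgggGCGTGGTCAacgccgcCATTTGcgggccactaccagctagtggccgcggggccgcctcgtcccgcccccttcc
Vcl: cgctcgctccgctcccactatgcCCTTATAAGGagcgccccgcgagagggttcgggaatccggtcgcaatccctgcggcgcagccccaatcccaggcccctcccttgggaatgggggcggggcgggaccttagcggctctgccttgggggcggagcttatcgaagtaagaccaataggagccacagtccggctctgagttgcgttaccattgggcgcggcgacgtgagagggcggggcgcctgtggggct

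The Parvb run held 2 E-boxes, the motif that MyoD and myogenin bind, starting 203 and 76 bases before the start, and no match to the other 3 motifs. The Lims1 run held an antioxidant response element core 73 bases and an E-box 57 bases before the start. The 2 further annotated starts of Lims1 held E-boxes and no antioxidant response element core. The Vcl run held a CArG box, the motif of serum response factor, 227 bases before the start. Among all 32851 promoters of the table at the same length, 66.2% held an E-box, 10.2% an antioxidant response element core, 4.46% an AP-1 core and 1.47% a CArG box. Fermt2 held both a CArG box and an antioxidant response element core, at 204 and 80 bases before its start, and its signal is described below with those of the genes printed here. The 3 runs were rich in G and C, at 65.2% for Parvb, 70.8% for Lims1 and 67.2% for Vcl, against a median of 52.4% over all promoters. A match describes the letters and no binding was measured. Promoters of 8 of the 10 genes were in the table.

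Signals are given as log2 of the scanner's processed signal minus the 75th percentile of the same array, so that 0 is the level of a probe brighter than 75% of the probes, and a difference of 1 is a 2-fold change. Levels are compared only within a probe. A probe was tested where it stood well above background, by the scanner's rule, on all 3 arrays of at least 1 condition, which held for 29664 probes of the array and for 17 of the 20 probes described here, from 9 of the 10 genes. Tests came from limma, fitted once to all 4 conditions with no block for replicate or slide. A probe passed at an adjusted p (Benjamini-Hochberg over all 29664 probes) under 0.05. An array had 47.6% to 58.9% of its probes well above background, and no spot was saturated. The arrays of replicates 1 and 2 shared a slide and those of replicate 3 had another. Precision is limited by having 3 arrays a condition. Each condition took the same column of positions on both slides, so that effects of position and of condition cannot be told apart.

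Bach1 itself was lower with its siRNA on every array. Its probe gave 1.73, 1.55 and 1.78 in siControl and 0.18, -0.22 and -0.22 in siBach1 cells at day 0. The day 2 arrays gave 2.56, 2.55 and 2.58 with siControl and 0.57, 0.56 and 0.65 with siBach1. The silencing effect was -1.77 (SE 0.11, n = 3 arrays a condition, limma adjusted p = 1.2e-05) at day 0 and -1.97 (SE 0.11, limma adjusted p = 1.4e-05) at day 2. The muscle lineage markers Des, Myod1 and Cdh15 were above background on all arrays, and Myf5 on 2 of 3 arrays of each condition. The summed linear signal of 5 markers of differentiating muscle (Myog, Acta1, Ckm, Myh3 and Tnnt3), in units of the array's 75th percentile, was 32.7 to 49.5 in siControl and 28.4 to 42.4 in siBach1 cells at day 0. By day 2 it was 1160 to 1260 in siControl and 750 to 912 in siBach1 cells. Of 4 endothelial markers, Cdh5, Kdr and Tek were below background on every array and Pecam1 was above it on 2 or 3 arrays of each condition, with a summed signal of 0.084 to 0.149 over the 12 arrays. Of 3 fat cell markers, Adipoq was below background on every array, Cidec was above it on 1 array of each day 0 condition, and Plin1 was above it on 2 arrays of each condition at day 0 and on all 3 at day 2. The summed signal of the fat cell markers was 0.0732 to 0.117 at day 0 and 0.11 to 0.263 at day 2. Of 6 blood cell markers, Ptprc, Itgam, Cd68 and Cd3e were above background on every array and Vav1 on none. Cd79a was above it on 2 siControl and 0 siBach1 arrays at day 0, and on 1 array of each condition at day 2. The summed signal of the 6 was 15.7 to 19.5 at day 0 and 23.9 to 31.6 at day 2 in siControl cells, and 16.2 to 18.7 and 20.1 to 30.7 in siBach1 cells. What part these markers have in any result was not tested.

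Parvb had 3 probes, and the largest of its changes was on A_51_P198645. In siControl cells at day 0 the 3 arrays gave 1.24, 1.29 and 1.52, and in siBach1 cells -1.21, -1.18 and -1.77. At day 2 the siControl arrays gave 0.26, 0.22 and 0.51 and the siBach1 arrays -1.57, -1.73 and -1.57. All 6 siBach1 arrays lay below all 6 siControl arrays. The difference was -2.74 (SE 0.16, 95% interval -3.10 to -2.39) at day 0, which leaves 15.0% of the siControl signal, and -1.95 (SE 0.16, -2.31 to -1.60) at day 2, which leaves 25.8%. Over the alternative runs this difference lay between -3.3 and -2.28 at day 0 and between -2.08 and -1.52 at day 2. In siControl cells this probe was lower at day 2 than at day 0, by a change of -1.02 (SE 0.16), with no overlap of the arrays. In siBach1 cells the change over the same days was -0.23 (SE 0.16), the arrays overlapped, and the sign depended on the slide, at -0.45 on the first and 0.21 on the second. In such bulk samples, fewer cells that hold an RNA and less of it per cell cannot be told apart.

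The second Parvb probe, A_51_P169415, was lower in siBach1 cells on every array at both days, by a smaller margin at day 0. At day 0 it gave -1.52, -1.78 and -1.57 in siControl and -2.57, -2.47 and -2.14 in siBach1 cells. The day 2 arrays gave -2.58, -2.41 and -2.05 in siControl and -3.42, -3.62 and -3.57 in siBach1 cells. The groups did not overlap on either day, and the differences were -0.77 (SE 0.15) and -1.19 (SE 0.15), which leave 58.6% and 43.9% of the siControl signal. With differentiation it changed by -0.72 (SE 0.15) in siControl and -1.14 (SE 0.15) in siBach1 cells. Under normexp background correction, which adds an offset of 50 and draws dim probes together, its silencing differences were -0.44 and -0.59.

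The third Parvb probe, A_55_P2713473, for which the table gives no accession, did not separate the siRNAs. It gave -2.74, -2.68 and -1.81 in siControl and -2.83, -2.64 and -1.06 in siBach1 cells at day 0. The day 2 arrays gave -3.03, -2.99 and -2.31 in siControl and -2.88, -3.07 and -2.58 in siBach1 cells. The array of replicate 3, on the second slide, was the brightest of every condition, and the groups overlapped. The differences were 0.23 (SE 0.44, 95% interval -0.75 to 1.20) at day 0 and -0.07 (SE 0.44, -1.04 to 0.91) at day 2. The 3 Parvb probes thus gave different values, and where on the transcripts each of them lies was not used here. At day 0, 2 of the 3 Parvb probes did not overlap between the groups and were lower, as did 15.4% of all tested probes, and at day 2 again 2 of 3, beside 17.1% of all; Parvb was chosen on this contrast.

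**Figure D1:**
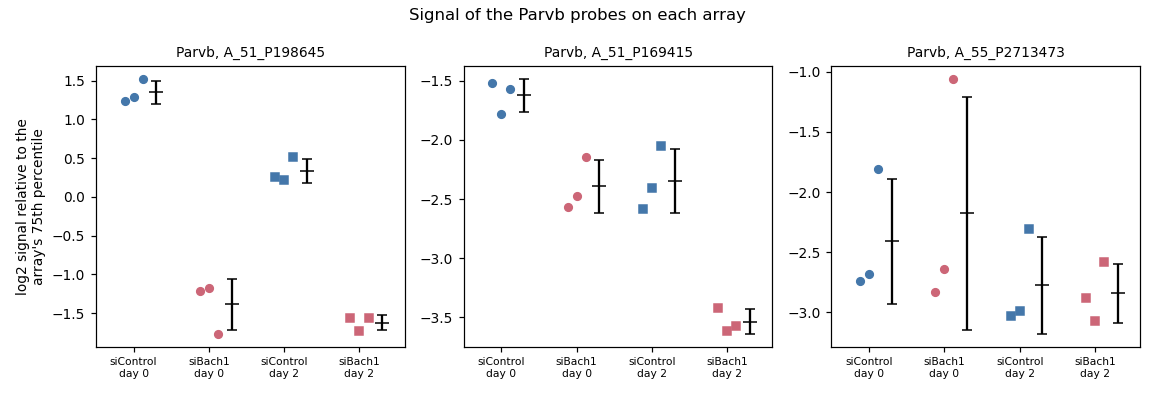
Signal of the 3 Parvb probes on each of the 12 arrays (y axis, log2 relative to the array's 75th percentile, its own scale in each panel; x axis, condition; circles day 0, squares day 2, blue siControl, red siBach1; bars, mean and SD of 3 arrays, points in the order of replicates 1 to 3). On A_51_P198645 the siControl arrays lie between 0.22 and 1.52 and the siBach1 arrays between -1.77 and -1.18, while on A_55_P2713473 the groups overlap.

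Of the other parvins, Parva could be tested on 2 probes, and neither passed with silencing. Parva, the parvin of most tissues, gave 3.41, 3.57 and 3.39 on A_55_P2130890 in siControl and 3.52, 3.61 and 3.69 in siBach1 cells at day 0, a difference of 0.15 (SE 0.09, 95% interval -0.04 to 0.34, limma adjusted p = 0.27). At day 2 it gave 3.07, 3.19 and 3.16 against 3.07, 2.92 and 3.08, a difference of -0.11 (SE 0.09, -0.31 to 0.08, limma adjusted p = 0.44). The second Parva probe, A_52_P225570, lay between 2.05 and 2.43 on all 12 arrays, with silencing differences of 0.12 (limma adjusted p = 0.47) and 0.02 (limma adjusted p = 0.93). The third, A_55_P2646855, was above background on 1 or 2 of 3 arrays in each condition and was not tested. Parvg, the parvin of blood cells and the neighbour of Parvb on chromosome 15, was not well above background on any of the 12 arrays, with signals of -7.43 to -6.05, so that no difference in it could be measured.

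In the fit without a block, the kinase at the centre of the complex passed in neither silencing comparison. Ilk gave 4.40, 4.49 and 4.50 in siControl and 4.44, 4.46 and 4.57 in siBach1 cells at day 0, a difference of 0.03 (SE 0.09, 95% interval -0.17 to 0.22, limma adjusted p = 0.88). By day 2 it gave 4.58, 4.76 and 4.71 against 4.39, 4.35 and 4.58, a difference of -0.24 (SE 0.09, -0.44 to -0.05, limma adjusted p = 0.11). The day 2 groups met at 4.58. With the replicate number as a block in the fit, the day 2 difference had a limma adjusted p of 0.041, and with slide as a block 0.037.

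Lims1 encodes PINCH1, the adaptor that binds the ankyrin repeats of integrin-linked kinase, while parvin binds its kinase-like part. On A_52_P222725 it gave 3.63, 3.62 and 3.41 in siControl and 2.40, 2.47 and 2.21 in siBach1 cells at day 0. At day 2 it gave 3.64, 3.73 and 3.45 in siControl and 3.43, 3.63 and 3.36 in siBach1 cells. The siBach1 arrays at day 0 stood apart, and the other 9 arrays shared a range of 3.36 to 3.73. The day 0 difference was -1.19 (SE 0.12, 95% interval -1.45 to -0.94, limma adjusted p = 0.00011), which leaves 43.7% of the siControl signal, and the day 2 difference was -0.13 (SE 0.12, -0.38 to 0.13, limma adjusted p = 0.54).

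A further Lims1 probe that names another transcript, A_65_P13201, gave the same picture. It gave 3.81, 3.97 and 3.66 in siControl and 2.75, 2.71 and 2.57 in siBach1 cells at day 0. Its day 2 arrays gave 3.85, 3.95 and 3.89 in siControl and 3.68, 3.70 and 3.65 in siBach1 cells. The groups did not overlap on either day, but only the day 0 fall passed, at -1.14 (SE 0.09, limma adjusted p = 3.7e-05) beside -0.22 (SE 0.09, 95% interval -0.43 to -0.02, limma adjusted p = 0.15) at day 2. The silencing effect differed between the days by 1.07 (SE 0.16, limma adjusted p = 0.011) on A_52_P222725 and by 0.91 (SE 0.13, limma adjusted p = 0.0088) on A_65_P13201. On the first slide alone, with 2 arrays a condition, these differences were 1.04 and 0.94 with limma adjusted p of 0.052 and 0.053. Without the filter on dim probes, 0.072 and 0.067 were the limma adjusted p. No silencing effect of Lims1 at day 0 lost its call under any alternative run.

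The third Lims1 probe, A_55_P2724654, pointed the other way at a low level. It was well above background on 2 of 3 siBach1 arrays at each day and on 0 of 6 siControl arrays. It gave -5.17, -5.14 and -5.44 in siControl and -4.37, -4.54 and -3.52 in siBach1 cells at day 0. The day 2 arrays gave -5.16, -4.75 and -4.99 against -4.16, -4.22 and -4.00. With each siControl array taken at no less than its lowest signal well above background, the siBach1 mean was 1.42-fold higher at day 0 and 1.31-fold higher at day 2. That mean includes a siBach1 array not well above background at each day, so these values are not strict lower limits. It was not tested, and its accession is that of a predicted transcript.

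Lims2 encodes PINCH2, the second adaptor of this kind. It gave 2.22, 1.54 and 2.23 in siControl and 1.37, 1.02 and 1.50 in siBach1 cells at day 0. By day 2 it gave 1.73, 2.34 and 1.46 against 2.09, 2.01 and 2.19. The siBach1 arrays lay below the siControl arrays at day 0 and within their range at day 2. Neither difference passed, at -0.70 (SE 0.24, 95% interval -1.24 to -0.15, limma adjusted p = 0.080) and 0.25 (SE 0.24, -0.29 to 0.80, limma adjusted p = 0.57). Without siControl day 0 replicate 2, the lowest of its group, the day 0 value was -0.92 with a limma adjusted p of 0.036, and without siControl day 2 replicate 2 the adjusted p was 0.041.

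Rsu1 encodes the partner that PINCH1 carries into the complex. Probes A_55_P1957954 and A_55_P2497074 had silencing differences between -0.12 and 0.12, none of which passed. The dim probe A_55_P2720391, whose accession is that of a cloned cDNA, gave -2.41, -2.12 and -2.52 in siControl and -1.67, -1.91 and -1.85 in siBach1 cells at day 2, a rise of 0.54 (SE 0.13, limma adjusted p = 0.023). At day 0 it gave -2.57, -2.85 and -2.73 against -2.37, -2.20 and -2.48, a difference of 0.37 (SE 0.13, limma adjusted p = 0.078, and 0.049 without siControl day 2 replicate 2). The Rsu1 probes thus gave different calls at day 2. The call at day 2 was lost without replicate 1 or 3 of either siRNA at that day (limma adjusted p of 0.053 to 0.091), within the first slide (0.47, limma adjusted p = 0.11), with only the arrays compared (0.068) and without the filter on dim probes (0.096). Under normexp the value was 0.30, and the day 0 difference was 0.34 (limma adjusted p = 0.015).

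**Figure D2:**
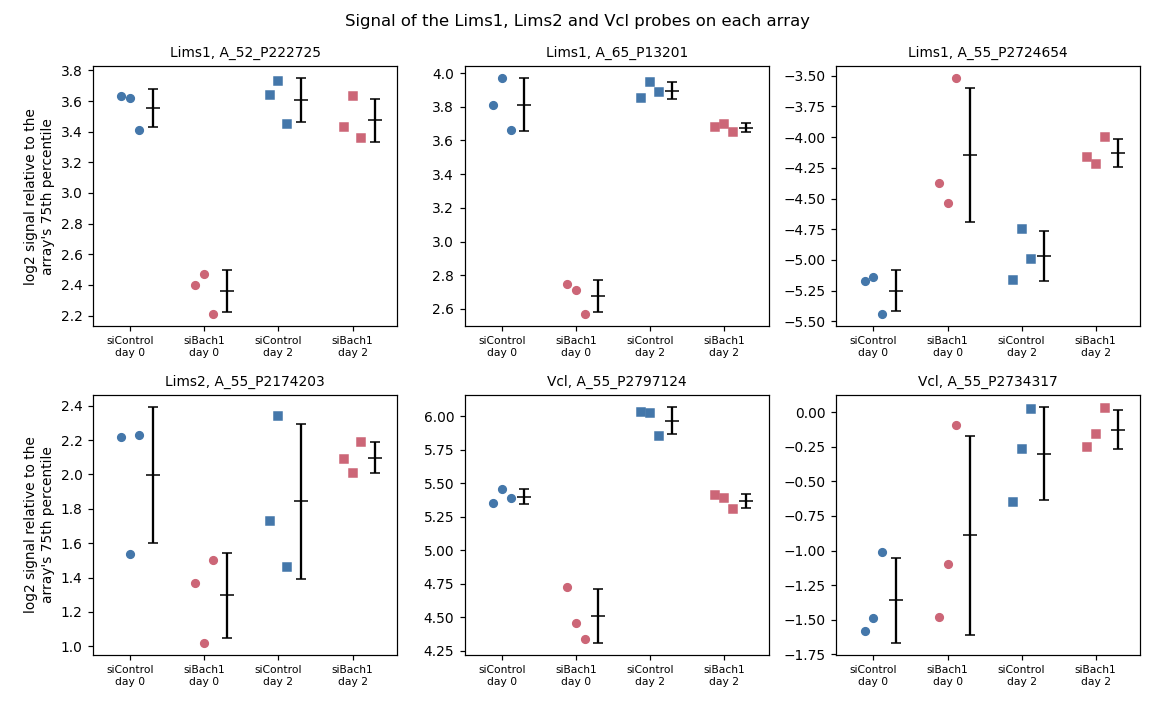
Signal of the Lims1, Lims2 and Vcl probes on each array (y axis, log2 relative to the array's 75th percentile, its own scale in each panel; x axis, condition; circles day 0, squares day 2, blue siControl, red siBach1; bars, mean and SD of 3 arrays). The siBach1 day 0 arrays of Lims1 lie at 2.21 to 2.47 on A_52_P222725 and at 2.57 to 2.75 on A_65_P13201, apart from all others, and the siBach1 arrays of Vcl A_55_P2797124 lie below the siControl arrays of the same day.

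Among the genes whose proteins work beside the complex at the integrin tail, Vcl had lower signal at both days on A_55_P2797124 but not on its second probe. Vinculin binds talin under tension and strengthens its hold on actin. Vcl gave 5.35, 5.46 and 5.39 on A_55_P2797124 in siControl and 4.73, 4.46 and 4.34 in siBach1 cells at day 0, a difference of -0.89 (SE 0.10, limma adjusted p = 0.00033). By day 2 it gave 6.03, 6.02 and 5.85 against 5.41, 5.39 and 5.31, a difference of -0.60 (SE 0.10, limma adjusted p = 0.0060). No arrays overlapped within a day, the values left were 53.9% and 66.2% of the siControl signal, and the effects did not pass as different between the days (0.29, SE 0.15, 95% interval -0.03 to 0.62, limma adjusted p = 0.28). The second Vcl probe A_55_P2734317, whose accession is that of a cloned cDNA, disagreed, with differences of 0.47 (SE 0.32, -0.24 to 1.17, limma adjusted p = 0.36) and 0.17 (SE 0.32, -0.53 to 0.88, limma adjusted p = 0.79), and its brightest array in every condition was that of replicate 3.

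Talin and kindlin, which bind the integrin tail directly, did not pass in either silencing comparison. On Tln1 A_55_P1956973 the arrays gave 6.54, 6.42 and 6.87 in siControl and 6.53, 6.31 and 6.57 in siBach1 cells at day 0, a difference of -0.14 (SE 0.12, 95% interval -0.41 to 0.13, limma adjusted p = 0.50). At day 2 the difference was -0.02 (SE 0.12, -0.29 to 0.25, limma adjusted p = 0.95). The second Tln1 probe, A_55_P1956978, differed by 0.01 (SE 0.19, limma adjusted p = 0.98) and -0.37 (SE 0.19, limma adjusted p = 0.24). Fermt2, which encodes kindlin 2, gave 4.19, 4.26 and 4.16 in siControl and 4.15, 4.17 and 4.44 in siBach1 cells at day 0, a difference of 0.05 (SE 0.09, limma adjusted p = 0.78). At day 2 it gave 4.81, 4.65 and 4.81 against 4.42, 4.51 and 4.46, without overlap, a difference of -0.29 (SE 0.09, 95% interval -0.50 to -0.08, limma adjusted p = 0.072). That value had a limma adjusted p of 0.032 without siBach1 day 0 replicate 3, 0.038 with slide as a block and 0.040 with a robust prior.

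Counted over the 14 tested probes of the partners of Parvb, 3 passed as lower at day 0 (both Lims1 probes and 1 of Vcl) and 0 as higher, while 8.32% of all tested probes passed as lower and 8.8% as higher. At day 2, 1 passed as lower (Vcl) and 1 as higher (Rsu1), while 6.26% and 5.75% of all tested probes did. Under normexp background correction 1 further probe passed as higher at day 0. The median change of the 14 was 0.04 at day 0 and -0.12 at day 2, beside 0.09 and -0.01 over all tested probes. Without siControl day 2 replicate 2, 5 rather than 3 probes passed at day 0, with Lims2 and Rsu1 A_55_P2720391 added.

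**Figure D3:**
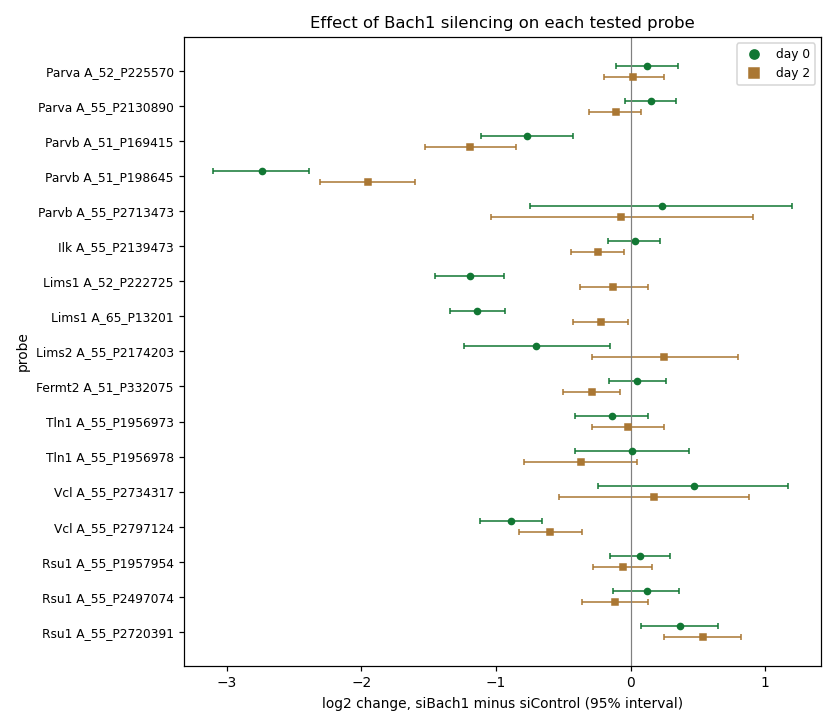
Effect of Bach1 silencing on the 17 tested probes (x axis, log2 change, siBach1 minus siControl, with its 95% interval from limma; y axis, gene and probe; circles day 0, squares day 2). Parvb A_51_P198645 lies at -2.74 and -1.95, and the Lims1 probes lie at -1.19 and -1.14 at day 0 but at -0.13 and -0.22 at day 2.

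With differentiation, most of the partner probes that passed rose in siControl cells, where 24.6% of all tested probes passed as higher and 28.7% as lower. Parvb A_51_P198645 was lower at day 2 but was not tested. It was singled out for a silencing fall that shares the siControl day 0 arrays, so its change is not set against theirs. Fermt2 rose by 0.55 (SE 0.09, limma adjusted p = 0.00059) from day 0 to day 2, with no overlap of the arrays. Tln1 rose by 0.43 (SE 0.12, limma adjusted p = 0.012) on A_55_P1956973, from 6.42 to 6.87 at day 0 up to 6.94 to 7.10 at day 2, and by 0.78 (SE 0.19, limma adjusted p = 0.0053) on A_55_P1956978. Vcl rose on both probes, by 0.56 (SE 0.10, limma adjusted p = 0.00097) on A_55_P2797124 and by 1.06 (SE 0.32, limma adjusted p = 0.016) on A_55_P2734317. Rsu1 rose on 2 of 3 probes, by 0.27 (limma adjusted p = 0.040) on A_55_P1957954 and by 0.37 (limma adjusted p = 0.033) on A_55_P2720391. The first of these calls was lost without any 1 of the siControl day 0 arrays, siControl day 2 replicate 1 or 3, or siBach1 day 2 replicate 1 (limma adjusted p of up to 0.11). The second was lost without siControl day 0 replicate 2 or 3 or siControl day 2 replicate 1 or 2 (up to 0.12), and after quantile normalization (0.20, limma adjusted p = 0.21). Rsu1 A_55_P2497074 changed by 0.26 (limma adjusted p = 0.071), with an adjusted p of 0.016 under the replicate block, and by 0.37 (limma adjusted p = 0.0065) after quantile normalization. The call of Vcl A_55_P2734317 was lost without siControl day 0 replicate 1 or 2 or siControl day 2 replicate 3 (0.052 to 0.059), and that of Tln1 A_55_P1956973 without siControl day 0 replicate 2 (0.34, limma adjusted p = 0.052).

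Parva was the partner gene with a fall that passed, on 1 of its tested probes. On A_55_P2130890 its change was -0.32 (SE 0.09, limma adjusted p = 0.010) in siControl cells and -0.58 (SE 0.09, limma adjusted p = 0.00021) in siBach1 cells, with no overlap in either (-0.21 and -0.35 after quantile normalization), while A_52_P225570 changed by 0.07 (limma adjusted p = 0.59) and -0.03 (limma adjusted p = 0.85). The siControl call of Parva A_55_P2130890 was lost without the filter on dim probes (limma adjusted p = 0.056). Ilk changed by 0.22 (SE 0.09, limma adjusted p = 0.061) in siControl cells, without overlap of the arrays, and with the replicate block its adjusted p was 0.024. After quantile normalization the change was 0.34 (limma adjusted p = 0.0029). Without siControl day 2 replicate 1 or siBach1 day 2 replicate 3 it passed as well (0.045 and 0.042). In siBach1 cells it changed by -0.05 (SE 0.09, limma adjusted p = 0.65), but by 0.22 (limma adjusted p = 0.026) after quantile normalization. Neither Lims1 probe passed in siControl cells, at 0.05 (SE 0.12, limma adjusted p = 0.73) and 0.08 (SE 0.09, limma adjusted p = 0.49), nor did Lims2, at -0.15 (SE 0.24, limma adjusted p = 0.64).

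In siBach1 cells, both PINCH genes rose between the days. Lims1 rose by 1.12 (SE 0.12, limma adjusted p = 1.6e-05) on A_52_P222725 and by 0.99 (SE 0.09, limma adjusted p = 7.2e-06) on A_65_P13201, which brought its day 2 arrays to 3.36 to 3.63 and 3.65 to 3.70. Lims2 rose by 0.80 (SE 0.24, limma adjusted p = 0.017), and without siBach1 day 0 replicate 2 by 0.66 (limma adjusted p = 0.067). For Lims2 the silencing effect was not shown to differ between the days (0.95, SE 0.35, 95% interval 0.18 to 1.72, limma adjusted p = 0.14). Vcl A_55_P2797124 rose by 0.86 (SE 0.10, limma adjusted p = 5.1e-05), Tln1 A_55_P1956973 by 0.55 (SE 0.12, limma adjusted p = 0.0028) and Rsu1 A_55_P2720391 by 0.54 (SE 0.13, limma adjusted p = 0.0043). Fermt2 changed by 0.21 (SE 0.09, limma adjusted p = 0.084), with an adjusted p of 0.012 without siBach1 day 0 replicate 3. It passed after quantile normalization (0.48, limma adjusted p = 0.00064), with normexp (0.23, limma adjusted p = 0.036) and within the first slide (0.31, limma adjusted p = 0.024). Rsu1 A_55_P1957954 changed by 0.15 (limma adjusted p = 0.24), and by 0.38 (limma adjusted p = 0.0025) after quantile normalization. Vcl A_55_P2734317 changed by 0.76 (SE 0.32, limma adjusted p = 0.063), with an adjusted p of 0.0063 under the replicate block. Without siBach1 day 0 replicate 3 that Vcl probe changed by 1.16 (limma adjusted p = 0.0020). Tln1 A_55_P1956978 changed by 0.40 (SE 0.19, limma adjusted p = 0.10), with an adjusted p of 0.033 without siControl day 0 replicate 3.

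Of the 14 partner probes, 7 passed as higher and 1 as lower in siControl cells, while 24.6% and 28.7% of all tested probes did. In siBach1 cells 6 passed as higher and 1 as lower, while 23.8% and 32.3% of all tested probes did. The medians of the 14 were 0.26 and 0.47, beside 0.00 and -0.07 over all tested probes. Without siControl day 0 replicate 2, 4 rather than 8 probes passed in siControl cells. The summed signal of the differentiating muscle markers rose over the same days, and less far in siBach1 cells, as given above with the markers.

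**Figure D4:**
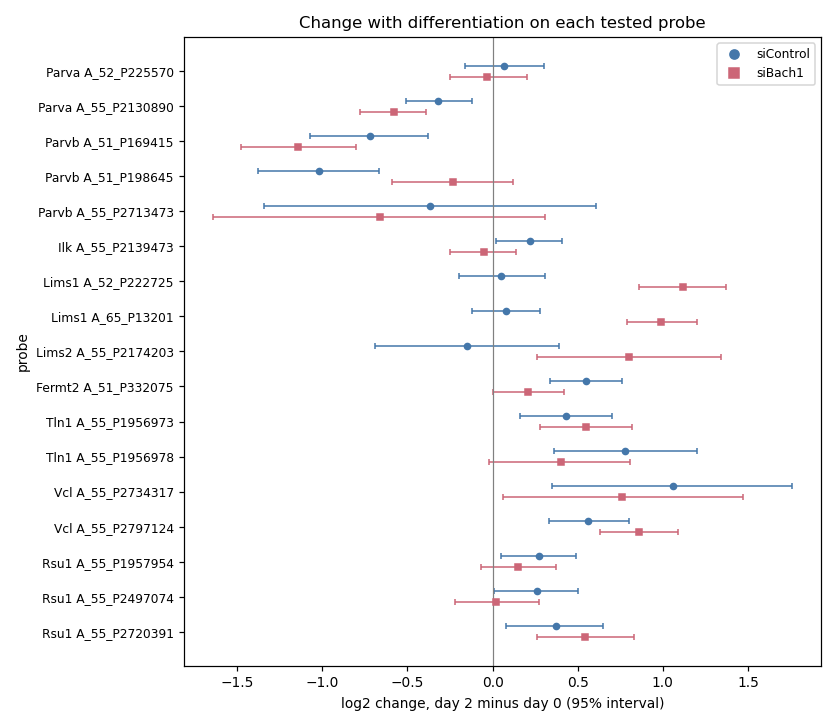
Change from day 0 to day 2 on the 17 tested probes (x axis, log2 change, day 2 minus day 0, with its 95% interval from limma; y axis, gene and probe; circles siControl, squares siBach1). The Lims1 probes lie at 0.05 and 0.08 in siControl and at 1.12 and 0.99 in siBach1 cells, and Parvb A_51_P198645 lies at -1.02 and -0.23.

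Tested for a change of the silencing effect between the days, 2 of the 14 partner probes passed, both of Lims1 and both as higher, while 2.39% of all tested probes passed as higher and 2.2% as lower. For Parvb, which was not tested, the same difference was 0.79 (SE 0.23) on A_51_P198645, -0.42 (SE 0.22) on A_51_P169415 and -0.30 (SE 0.62) on A_55_P2713473. The 5 comparisons share arrays, so that none is independent of the others.

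The wider adhesion machinery was followed with 76 tested probes of 37 genes, in lists of integrins and their activators, the paxillin family, binders of the integrin-linked kinase complex, focal adhesion kinases and adaptors, and actin-linked proteins. At day 0, 7 of the 76 passed as higher in siBach1 cells and 9 as lower, beside 8.8% and 8.32% of all tested probes. With quantile normalization the split was 4 higher and 14 lower, and with normexp 10 and 9. The replicate block, which takes out what arrays of the same number share, gave 32 passing probes in place of 16. The shares of all tested probes are those of the fit without a block, and none was taken under other settings. Counts under other settings therefore cannot be set against the whole array. The count was 10 without siControl day 0 replicate 1 and 9 without siControl day 0 replicate 2. At day 2, 5 passed as higher and 8 as lower, beside 5.75% and 6.26% of all tested probes, 20 in all with the replicate block, and 6 to 8 when any 1 of the 6 arrays compared was left out.

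Among integrins and their activators, 4 of 18 probes passed as higher and 3 as lower at day 0, beside 8.8% and 8.32% of all tested probes. Itgb5, the beta subunit that pairs with the alpha v integrin, gave 3.83, 3.68 and 3.84 in siControl and 4.53, 4.36 and 4.61 in siBach1 cells, a rise of 0.72 (SE 0.11, limma adjusted p = 0.0017). Itgb3, another partner of alpha v, fell by 0.77 (SE 0.16, limma adjusted p = 0.0083), from 1.41, 1.54 and 1.52 to 0.78, 0.84 and 0.54, on A_52_P553890, while its second probe A_66_P126293 differed by 0.00 (SE 0.18, limma adjusted p = 0.99). Tln2, the second talin, rose by 0.45 (SE 0.09, limma adjusted p = 0.0086) on A_55_P2741366. The second Tln2 probe, A_51_P223132, differed by 0.20 (SE 0.15, limma adjusted p = 0.38) at day 0 and -0.03 (SE 0.15, limma adjusted p = 0.94) at day 2. At day 2, 3 probes passed as higher and 3 as lower, beside 5.75% and 6.26% of all. Itga6, a laminin receptor subunit, fell by 0.83 (SE 0.09, limma adjusted p = 0.00070) on A_55_P2742291, from 4.42, 4.43 and 4.30 to 3.52, 3.62 and 3.52. Of its 3 further tested probes, A_55_P2015670 passed (-0.77, limma adjusted p = 0.0019), and A_65_P04508 (-0.68, limma adjusted p = 0.054) and A_55_P1958840 (-0.10, limma adjusted p = 0.74) did not. Itgb5 (0.41, limma adjusted p = 0.036) and Tln2 A_55_P2741366 (0.38, limma adjusted p = 0.027) passed again as higher, but lost the call without any 1 of 7 arrays for Itgb5 and of 5 for Tln2, with adjusted p of up to 0.11 and 0.089.

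Of 4 probes of the paxillin family, adaptors that parvins and vinculin bind, 1 passed as lower at day 0 and 2 at day 2, and 0 as higher, beside 8.32% and 6.26% of all tested probes as lower. Tgfb1i1, which encodes the paxillin relative Hic-5, fell by 0.59 (SE 0.08, limma adjusted p = 0.00093) at day 0 on A_55_P2000127, from 3.38, 3.47 and 3.44 to 2.94, 2.82 and 2.77, and differed by -0.43 (limma adjusted p = 0.061) on A_52_P949440. Pxn, paxillin itself, fell by 0.70 (SE 0.09, limma adjusted p = 0.0011) at day 2 on A_51_P214859, from 1.95, 2.07 and 2.17 to 1.35, 1.30 and 1.44. Of 16 probes of proteins that bind the complex, 1 passed as higher at each day and 0 as lower, beside 8.8% of all at day 0 and 5.75% at day 2 as higher. These were Kank2, a talin-binding protein (0.42, SE 0.09, limma adjusted p = 0.0097) at day 0, and Arhgef6, which encodes a binder of beta-parvin (0.65, SE 0.15, limma adjusted p = 0.019), at day 2. Kank2 was called on A_51_P383737, and A_55_P2798942 differed by 0.26 (limma adjusted p = 0.079). Arhgef6 was called on A_55_P1964573, and its second probe A_55_P2719574 differed by 0.07 (SE 0.22, limma adjusted p = 0.89). The first Arhgef6 probe gave -0.08, 0.30 and -0.01 in siControl and 0.63, 0.50 and 1.00 in siBach1 cells, and lost its call without siControl day 2 replicate 1 or 3 or siBach1 day 2 replicate 3 (limma adjusted p of 0.054 to 0.071).

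Of 13 probes of focal adhesion kinases and adaptors, 1 passed as higher and 1 as lower at each day, beside 8.8% and 8.32% of all at day 0 and 5.75% and 6.26% at day 2, and both were probes of the adaptor Crk. Crk A_52_P618807 rose by 0.61 (SE 0.08, limma adjusted p = 0.00082) at day 0 and 0.39 (SE 0.08, limma adjusted p = 0.015) at day 2. Crk A_55_P2500388 fell by 1.21 (SE 0.18, limma adjusted p = 0.0015) and 0.65 (SE 0.18, limma adjusted p = 0.046), so the direction of Crk depended on the probe. Under normexp the second probe had -0.40 (limma adjusted p = 0.055) at day 0 and -0.38 (limma adjusted p = 0.081) at day 2, and the first 0.53 (limma adjusted p = 0.0012) and 0.21 (limma adjusted p = 0.13). The day 2 call of A_55_P2500388 was lost without any 1 of 10 arrays (limma adjusted p of up to 0.15), and that of A_52_P618807 without siBach1 day 2 replicate 1 or siControl day 2 replicate 3. Of 25 probes of actin-linked proteins, 1 passed as higher and 4 as lower at day 0, and 0 and 2 at day 2, beside the same shares of all tested probes. Tes, which encodes the LIM protein testin, fell by 0.73 (SE 0.13, limma adjusted p = 0.0043) at day 0, from 4.45, 4.32 and 4.44 to 3.81, 3.57 and 3.64. Zyx, which encodes zyxin, a protein of actin under tension, fell by 0.39 (SE 0.08, limma adjusted p = 0.010) at day 2 on A_51_P473252, and by 0.21 (limma adjusted p = 0.13) after quantile normalization.

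With differentiation in siControl cells, 29 of the 76 probes passed as higher and 9 as lower, beside 24.6% and 28.7% of all tested probes, and in siBach1 cells 28 and 13, beside 23.8% and 32.3%. The medians of the 76 were 0.15 and 0.18, beside 0.00 and -0.07 over all tested probes. Arhgef6 A_55_P1964573 rose by 3.46 (SE 0.15, limma adjusted p = 5.9e-08) in siControl cells, from -3.51, -3.43 and -3.24 to -0.08, 0.30 and -0.01, while A_55_P2719574 changed by 0.15 (SE 0.22, limma adjusted p = 0.58). Kank1 rose by 1.82 (SE 0.29, limma adjusted p = 0.00036) and Itga7, the alpha subunit of the main laminin receptor of muscle, by 1.54 (SE 0.08, limma adjusted p = 2.5e-07). Normexp background correction brought the rises of the dim probes of Arhgef6 and Kank1 to 2.33 and 1.20. Tns3, a tensin, fell by 1.14 (SE 0.21, limma adjusted p = 0.00081), Tes by 1.04 (SE 0.13, limma adjusted p = 7.6e-05), Ptk2, which encodes focal adhesion kinase, by 0.74 (SE 0.14, limma adjusted p = 0.0014) and Src by 0.73 (SE 0.14, limma adjusted p = 0.0011). The fall of Ptk2 was on A_52_P359381, and its 2 further probes changed by -0.32 and -0.36 and did not pass. That of Src was on A_52_P600547, and A_51_P426214 changed by -0.09 (limma adjusted p = 0.76). Of these, Tes fell with silencing at day 0 as well as with differentiation.

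The silencing effect of the wider machinery differed between the days for 4 of the 76 probes, all as lower, beside 2.2% of all tested probes as lower and 2.39% as higher. These probes were named after their values were seen. They were Itga7 A_55_P2040011 (-0.66, SE 0.12, limma adjusted p = 0.017), Pxn A_51_P214859 (-0.53, SE 0.12, limma adjusted p = 0.037), Pxn A_66_P134044 (-0.69, SE 0.17, limma adjusted p = 0.045) and Kank2 A_51_P383737 (-0.61, SE 0.12, limma adjusted p = 0.026). Itga7 gave 7.15, 7.05 and 7.23 in siControl and 7.55, 7.32 and 7.52 in siBach1 cells at day 0. Its day 2 arrays gave 8.69, 8.72 and 8.65 against 8.33, 8.38 and 8.33. On this probe the siBach1 arrays were thus the higher at day 0 and the lower at day 2. The second Itga7 probe, A_52_P413034, gave 3.31, 3.14 and 3.34 against 3.80, 3.68 and 3.46 at day 0. Its day 2 arrays overlapped, at 4.72, 4.83 and 4.69 against 4.74, 4.63 and 4.66. With any 1 of the 12 arrays left out, 0 to 2 of the 76 probes passed, with the replicate block 9 did, and with quantile normalization 1 of 4 passing probes was higher.

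Genes outside the complex were ranked by how like their pattern over the 12 arrays was to that of Parvb A_51_P198645. Members and probes without a symbol were left out of this ranking. The probe was taken for the largest Parvb fall at day 0, so a pattern like it implies lower signal with silencing. By Pearson's r over all 12 arrays, given as a description since the arrays form 4 conditions and share the 75th percentile scaling, the nearest were Klhdc2 (0.993), Tomm70a (0.989), Itfg2 (0.989), Dnlz (0.987) and Abhd6 (0.986). Tomm70a encodes a receptor for protein import into mitochondria, and Abhd6 a lipid hydrolase. Their changes with silencing at day 0 were -1.05, -1.64, -0.95, -1.05 and -1.21 in the same order, and -0.76, -1.0, -0.68, -0.70 and -0.74 at day 2. At day 0 these falls were smaller than that of Parvb A_51_P198645 (-2.74). They were larger than the changes of Parvb A_51_P169415 (-0.77) and A_55_P2713473 (0.23). Within the complex, r with A_51_P198645 was 0.798 for Parvb A_51_P169415 and -0.012 for Parvb A_55_P2713473. It was 0.530 and 0.587 for the Lims1 probes and 0.242 for Ilk. For Vcl the sign depended on the probe, with 0.524 on A_55_P2797124 and -0.494 on A_55_P2734317. The Rsu1 probes had -0.754 on A_55_P2720391, -0.269 on A_55_P1957954 and -0.165 on A_55_P2497074. The remaining partner probes lay between -0.334 (Parva A_52_P225570) and 0.219 (Lims2).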

How the data were processed

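RNA of 12 C2C12 samples was labelled with Cy3 and each hybridized to an Agilent mouse array. The authors deposited the scanner's intensity values (Agilent Feature Extraction, 9.1 per the labels and 10.7.3.1 per the file headers), in which the processed signal is background-subtracted. They also deposited a table of normalized log2 values, each the log2 signal less the array's 75th percentile and less the median of the probe over the 12 arrays (rebuilt here within 0.00034). From the scanner files, control spots and 76 to 110 outlier spots an array were removed, spots of a probe averaged on the log2 scale, and the array's 75th percentile subtracted. limma 3.58.1 (R 4.3.3, files read with pandas 2.3.3) fitted the 4 conditions together, without a block, and the code was tested on simulated data. Symbols are those of the deposited table, and all 16 RefSeq accessions among the 20 probes had the same symbol in GRCm38.p6. The scanner files name an older build, so coordinates are given only for promoters.

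Residuals of arrays that share a replicate number correlated in all 18 pairs (0.142 to 0.595, above the limit of 0.1), so the numbers were taken to pair the samples. Such arrays also share a slide and row, which cannot be told apart from pairing. The fit behind the main values has no block, so its adjusted p leave the pairing out, and the replicate block is given as an alternative. Alternatives were quantile normalization, the authors' normalized values, normexp (offset 50), no or a stricter filter, replicate or slide as a block, single slides, only the arrays compared, a robust prior, the methods' t-test, a 2-fold limit and each array left out. Every member probe is named; of the adhesion lists, up to 4 genes with the largest change each way that passed and were above background on all arrays compared are named for each silencing comparison and for differentiation in siControl cells, and the 5 genes nearest in pattern. A gene of the differentiation comparison that this rule names is not reported here. Members and lists were chosen with earlier results of these data known.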

Additional observations from a re-analysis of the deposited data

Results flagged for a closer look

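The silencing effect differed between day 0 and day 2, by a test of the difference itself in limma, for both tested Lims1 probes that name a RefSeq mRNA, by 1.07 on A_52_P222725 and 0.91 on A_65_P13201. It differed in the other direction for Itga7 A_55_P2040011 (-0.66), Pxn A_51_P214859 (-0.53), Pxn A_66_P134044 (-0.69) and Kank2 A_51_P383737 (-0.61). None of these differences passed without the filter on dim probes or within the first slide.

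Lims1 A_55_P2724654, which entered no comparison, was well above background on 4 siBach1 arrays and on 0 of 6 siControl arrays. No explanation of these values was tested.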

How the results depend on the processing

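Values are numbers of probes that passed, for the 14 partner probes first and the 76 probes of the adhesion lists second, against 3 and 16 at day 0, 2 and 13 at day 2, 8 and 38 for differentiation in siControl cells, 7 and 41 in siBach1 cells, and 2 and 4 for the difference between the silencing effects. No share of all tested probes was taken under these settings, so a changed count may hold for the whole array as well. With no filter on dim probes the lists had 6 at day 0; at day 2 the counts were 1 and 3, the partners in siControl differentiation had 5, and the difference had 0 and 0. The replicate block, which stands for the pairing, gave the lists 32 at day 0, 20 at day 2 and 9 for the difference; beside the calls it changed for Ilk, Vcl A_55_P2734317 and, in siControl differentiation, Rsu1 A_55_P2497074 (0.26, limma adjusted p = 0.016), it changed no other call of a partner. Slide as a block gave the lists 33, 21 and 13 in these comparisons, and the partners 4 at day 2. Within the first slide the day 2 counts were 1 and 7, and the difference had 0 and 0. With only the arrays compared, the lists had 10 at day 0, and the day 2 counts were 1 and 5. The methods' t-test with Benjamini-Hochberg gave the lists 8 at day 0, 1 and 4 at day 2 and the partners 5 in siControl differentiation; unadjusted it gave the lists 26 at day 0, 5 and 21 at day 2, and 6 and 22 for the difference. With a 2-fold limit the lists had 1 at day 0, the day 2 counts were 0 and 1, siControl differentiation 1 and 13, siBach1 differentiation 1 and 9, and the difference 1 and 0. With each array left out in turn, the counts were 3 to 5 and 9 to 15 at day 0, 1 to 3 and 6 to 15 at day 2, 4 to 10 and 34 to 40 in siControl differentiation, 6 to 9 and 37 to 43 in siBach1 differentiation, and 2 and 0 to 2 for the difference. The signs of some small differences, each at most 0.30 in size as reported, turned with the setting. Quantile normalization gave -0.02 for Ilk and -0.01 for Tln1 A_55_P1956978 at day 0, 0.14 for Tln1 A_55_P1956973 and 0.04 for Rsu1 A_55_P1957954 at day 2, 0.12 for Parva A_52_P225570 and 0.22 for Ilk in siBach1 differentiation, and 0.02 for the difference of Rsu1 A_55_P1957954. Normexp gave 0.00 for Parva A_52_P225570 and Fermt2 at day 0, -0.02 and 0.05 for Parva A_52_P225570 and Tln1 A_55_P1956973 at day 2, 0.00 for Parva A_52_P225570 in siControl differentiation, and -0.03 for the difference of Rsu1 A_55_P2720391. Within the first slide, Fermt2 and Rsu1 A_55_P1957954 gave -0.07 and -0.02 at day 0, Parva A_52_P225570 gave -0.01 at day 2, Lims2 gave 0.16 in siControl and Rsu1 A_55_P2497074 gave -0.04 in siBach1 differentiation, and Vcl A_55_P2734317 gave 0.01 for the difference. With each array left out in turn, the day 0 values were -0.01 to 0.05 for Ilk, -0.05 to 0.10 for Fermt2, -0.11 to 0.23 for Tln1 A_55_P1956978 and -0.03 to 0.13 for Rsu1 A_55_P1957954. At day 2 they were -0.02 to 0.11 for Parva A_52_P225570, -0.07 to 0.01 for Tln1 A_55_P1956973 and 0.00 to 0.33 for Vcl A_55_P2734317. In siControl differentiation they were -0.02 to 0.13 for Lims1 A_52_P222725 and -0.40 to 0.04 for Lims2, and in siBach1 differentiation -0.07 to 0.06 for Parva A_52_P225570 and -0.07 to 0.10 for Rsu1 A_55_P2497074. For the difference they were -0.01 to 0.21 for Tln1 A_55_P1956973 and -0.59 to 0.10 for Vcl A_55_P2734317. Of these, Ilk passed under quantile normalization (limma adjusted p = 0.026). The cause of these shifts was not tested. Signal over background left 3 of the 20 member probes untested.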
